A study of Mus musculus with 10 samples.

Results

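This section covers 10 genes of the choroid plexus epithelium, Ttr, Enpp2, Folr1, Clic6, Kcne2, Kcnj13, Aqp1, Slc4a5, Otx2 and Tmem72, of 30935 genes in a count table of mouse cerebral cortex. They are known markers of this tissue and were chosen by their levels in these same libraries, where several were low in the knockout, so their knockout levels are given as a description and carry no test. Total RNA of the cortex was sequenced at postnatal day 8 from 5 wild-type mice (replicates 2, 4, 5, 6 and 7) and 5 mice that lacked HAR.505, a human accelerated region in the Rbfox1 locus, on both alleles (replicates 1, 3, 5, 6 and 8, called knockout). The submitters describe the samples as independent biological samples. No source used here gives the strain, the sex or the number of founder lines. All 10 genes were found in the table and passed the filter on low counts.

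The choroid plexus is a vascularised fold of the ventricle wall whose epithelium secretes the cerebrospinal fluid. Its cells move sodium, chloride, bicarbonate and water from blood to ventricle, release carrier and growth factor proteins, and take up vitamins for the brain. The tissue lies in the ventricles and is not part of the cortical wall, and some of these genes are also expressed by other brain cells. In such bulk RNA, fewer cells of a type and less RNA per cell cannot be told apart.

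Library totals ran from 16479594 to 22391943 counts, so a gene with 0 counts could still be present at about 0.166 CPM (3 counts, counting error only). Levels are in CPM, counts scaled to a common library total, with the total corrected by the trimmed mean of M values (TMM). Knockout replicates 3, 5 and 6 stood apart from the other libraries, with Ttr at 5.07 CPM or lower, and values are given with each library shown. The list of 11 cortical neuron genes had a summed level of 1894 to 2002 CPM in wild type and 1961 to 2090 CPM in knockout. The largest part was Slc17a7, a vesicular glutamate transporter gene, with means of 927 ± 43.1 and 989 ± 110 CPM (SD, n = 5 each). The sum does not show single genes: by the edgeR test, 2 of the 11 were higher and 2 lower in the knockout at an unadjusted p under 0.05 (4.19% and 4.52% of all tested genes). Over all genes, 59 of 15488 tested passed the edgeR quasi-likelihood test (0.381%), 30 of them lower in the knockout (0.194%).

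Upstream sequence is shown for 3 of the genes, a transcription factor (Otx2), a gene whose share of the wild-type level stayed close to that of Ttr (Kcne2) and one whose share did not (Kcnj13). They come from the RefSeq promoter windows of GRCm38.p6, which held 6 of the 10 genes in 10 windows; Ttr, Clic6, Folr1 and Enpp2 had none. Capitals mark a match to TAATCC, the core recognised by Otx2, or to TATAAA, each searched on both strands of the 250 bases before the start. The Otx2 stretch is chr14:48665303-48665332 on the minus strand, overlapping an annotated Otx2 exon, the Kcnj13 stretch chr1:87394730-87394798 on the minus strand and the Kcne2 stretch chr16:92292289-92292388 on the plus strand.
Otx2: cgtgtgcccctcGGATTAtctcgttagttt
Kcnj13: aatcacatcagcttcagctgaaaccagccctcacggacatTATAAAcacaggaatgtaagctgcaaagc
Kcne2: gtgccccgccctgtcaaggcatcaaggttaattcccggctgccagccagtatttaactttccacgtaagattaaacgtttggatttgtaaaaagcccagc
The letters TAATCC or their reverse complement GGATTA occurred in 1 of the 10 windows, an alternative start of Otx2 itself, and in 6.25% of all 32851 windows. The forkhead letters GTAAACA occurred in 0 of the 10 windows and in 3.17% of all windows. TATAAA occurred in 3 of the 10 windows, of Kcnj13, Slc4a5 and Otx2, and in 12.4% of all. TATAAA was chosen after the sequences were seen. In the gene order of GRCm38, Kcne2 and Clic6 lie on chromosome 16 with 11 genes between them, and so does Rbfox1, with 1334 genes between it and Kcne2.

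Ttr was the most abundant of the genes per length and the one with the largest coefficient of variation among knockout libraries (152%). It encodes transthyretin, a secreted carrier of thyroid hormone and retinol-binding protein. In the wild-type libraries it stood at 213, 270, 264, 251 and 278 CPM in replicate order, and in the knockout libraries at 200, 0, 0.490, 5.07 and 80.6 CPM. The groups did not overlap, but knockout replicate 1 lay just under the lowest wild-type library while replicate 3 held not 1 Ttr count, which allows up to 0.0649% of the wild-type mean. Wild type averaged 255 ± 25.4 CPM and knockout 57.3 ± 86.9 CPM (SD, n = 5 each). The fitted log2 fold change was -2.16 with an SE of 1.15. Scaled to the longest coding transcript, the wild-type level of Ttr was 215 CPM per kilobase, against 35.0 for Enpp2. The others lay between 0.309 (Tmem72) and 2.51 (Folr1). The low value of Tmem72, at a wild-type mean of 5.31 CPM, rests on 1 annotated coding transcript of 17152 bases. The next longest was that of Slc4a5, at 5123 bases.

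Enpp2, the other secreted product, had similar levels in the genotypes. It encodes autotaxin, an enzyme that makes lysophosphatidic acid and is also made by oligodendrocytes. Enpp2 stood at 94.6, 105, 109, 114 and 119 CPM in the wild-type libraries and at 121, 96.0, 93.9, 92.5 and 95.5 CPM in the knockout libraries. The groups overlapped, and knockout replicate 1 was the highest of all 10 libraries. In the knockout libraries with almost no Ttr, Enpp2 was thus close to wild type: 88.6% of the wild-type mean in replicate 3, 86.7% in replicate 5 and 85.4% in replicate 6. The list of 14 oligodendrocyte lineage genes had summed levels of 724 to 896 CPM in wild type and 725 to 851 CPM in knockout, with 0 of 14 past the edgeR test and 0 at an unadjusted p under 0.05. Its part in the level of Enpp2 was not tested.

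**Figure D1:**
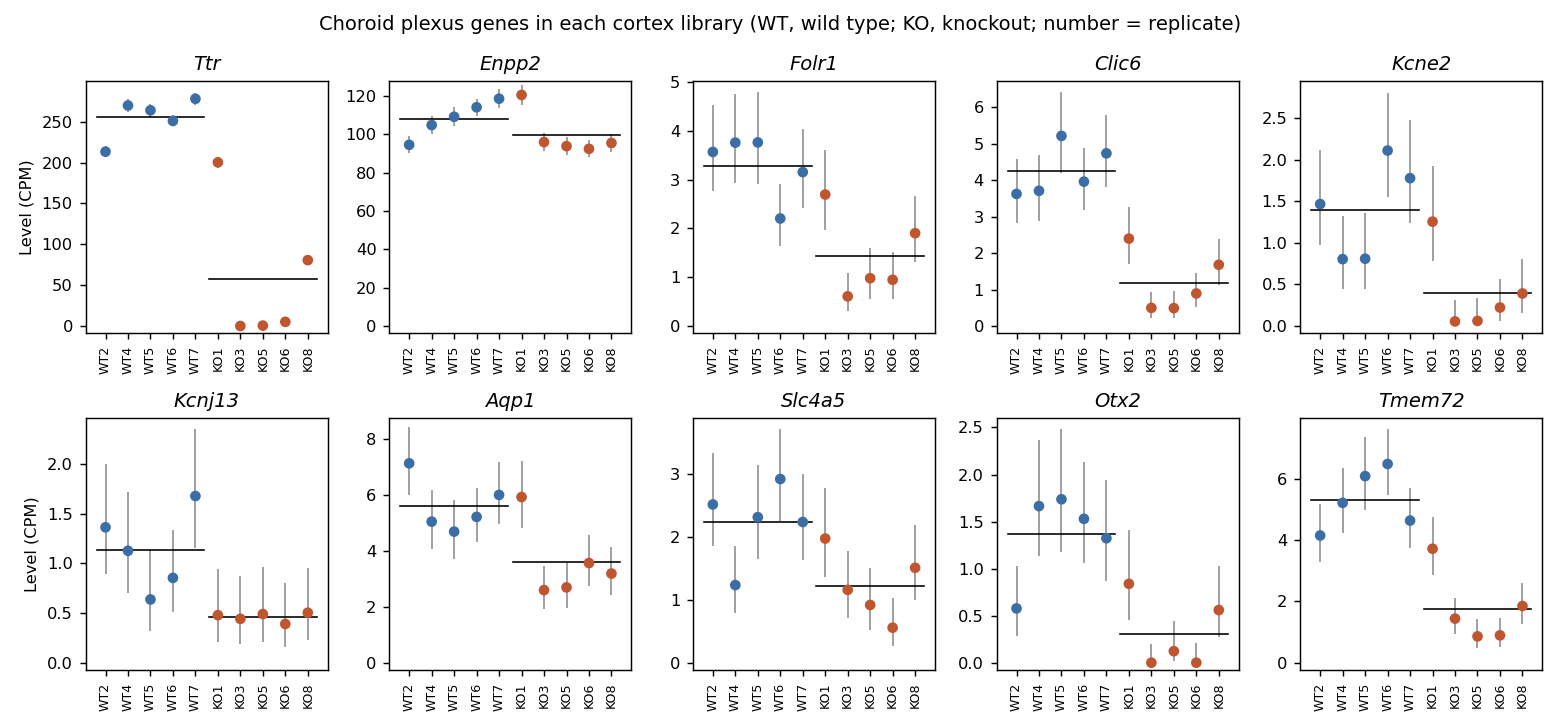
Level of each of the 10 genes in CPM (y axis, linear, a scale of its own per gene) in the 5 wild-type (blue) and 5 knockout (orange) libraries, named by genotype and replicate on the x axis; grey bars are exact 95% Poisson intervals of the count and black lines the group means. Ttr ran from 213 to 278 CPM in wild type and from 0 to 200 CPM in knockout, whereas Enpp2 ran from 92.5 to 121 CPM in knockout.

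Folr1 encodes the folate receptor through which the epithelium carries folate into the cerebrospinal fluid. Folr1 stood at 3.57, 3.76, 3.76, 2.20 and 3.15 CPM in wild type and at 2.69, 0.607, 0.979, 0.947 and 1.90 CPM in knockout. Knockout replicate 1 lay above wild-type replicate 6, and the 4 others lay below every wild-type library. The log2 fold change was -1.20 (SE 0.31).

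Among the 5 genes of ion and water transport, Clic6 and Kcne2 had the most negative log2 fold changes, -1.83 and -1.82. Clic6 encodes a chloride intracellular channel protein of secretory epithelia. Its wild-type libraries held 3.62, 3.70, 5.21, 3.96 and 4.73 CPM and its knockout libraries 2.39, 0.497, 0.490, 0.891 and 1.68 CPM, so that the groups did not overlap (log2 fold change -1.83, SE 0.32). Kcne2 encodes a potassium channel beta subunit of the apical membrane that partners Kcnq1. Kcne2 gave 28, 15, 14, 47 and 35 counts in wild type (1.40 ± 0.583 CPM, SD, n = 5) and 21, 1, 1, 4 and 7 counts in knockout (0.398 ± 0.500 CPM, SD, n = 5). Knockout replicate 1 lay within the wild-type range, and the wild-type libraries themselves differed by more than counting allows, with a coefficient of variation of 41.8% against 19.0% from counting alone.

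Kcnj13, the gene of the inward rectifier potassium channel Kir7.1 of the apical membrane, had another pattern. It gave 26, 21, 11, 19 and 33 counts in wild type and 8, 8, 8, 7 and 9 counts in knockout. The groups did not overlap in CPM, and the knockout libraries were alike, between 34.4% and 44.5% of the wild-type mean, although Ttr ran from 0% to 78.5% in the same libraries. With so few counts each share is imprecise: the exact 95% Poisson interval in knockout replicate 1 ran from 18.3% to 83.3%. In the GENCODE M21 annotation Kcnj13 lies inside Gigyf2 on the opposite strand, and without a stated strand setting reads of the genes cannot be told apart. The level of Gigyf2 itself averaged 74.2 ± 1.98 CPM in the wild-type libraries and 74.7 ± 5.69 CPM in the knockout libraries (SD, n = 5 each).

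Aqp1 had the largest share of its wild-type level among the transport genes in knockout replicates 5 and 6, and Slc4a5 in replicate 3. Aqp1, the water channel of the apical membrane, gave 136, 94, 81, 116 and 118 counts in wild type (5.62 ± 0.975 CPM, SD, n = 5) and 99, 47, 44, 64 and 57 counts in knockout (3.59 ± 1.36 CPM, SD, n = 5). In CPM, knockout replicate 1 was within the wild-type range and the 4 others below it (log2 fold change -0.65, SE 0.21). Slc4a5, a sodium bicarbonate cotransporter gene, stood at 2.52, 1.23, 2.32, 2.92 and 2.24 CPM in wild type and at 1.98, 1.16, 0.918, 0.557 and 1.51 CPM in knockout. Here knockout replicates 1 and 8 lay above wild-type replicate 4 and the groups overlapped (log2 fold change -0.88, SE 0.33). Aqp1 is also a gene of red cells and of some endothelia. The red cell list had summed levels of 806 to 1034 CPM in wild type and 718 to 990 CPM in knockout, with knockout replicates 1, 3, 5 and 6 at 758 CPM or lower, and the endothelial list 398 to 429 and 403 to 448 CPM. The part of either list in the level of Aqp1 was not tested.

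Otx2, the homeobox transcription factor that maintains choroid plexus identity, gave 11, 31, 30, 34 and 26 counts in wild type and 14, 0, 2, 0 and 10 counts in knockout. Knockout replicate 1 lay above wild-type replicate 2 in CPM, the 4 others below every wild-type library. The 0 counts of knockout replicates 3 and 6 allow, at 3 counts, up to 12.1% and 12.2% of the wild-type mean. The log2 fold change was -2.16 (SE 0.62). Tmem72, a membrane protein gene with strong expression in the choroid plexus, stood at 4.14, 5.21, 6.08, 6.48 and 4.63 CPM in wild type and at 3.71, 1.44, 0.857, 0.891 and 1.85 CPM in knockout, without overlap (log2 fold change -1.60, SE 0.30).

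All 10 genes had a negative log2 fold change, with a median of -1.45 against -0.0021 over all 15488 tested genes. Clic6 and Tmem72 were among the 30 genes called lower by the edgeR test (0.194% of tested genes), and in Ttr, Clic6, Kcnj13 and Tmem72 every knockout library lay below every wild-type library, which held for 0.897% of tested genes. Since the genes were named with this contrast known, nothing is read from these counts. Without knockout replicates 3, 5 and 6 the median was -0.82, all 10 signs were kept, and Enpp2 moved to -0.0025 (SE 0.088), Ttr to -0.86 (SE 0.36) and Clic6 to -1.06 (SE 0.28).

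Within a knockout library the shares of the wild-type level ranged widely over the 10 genes. In replicate 3, with Ttr and Otx2 at 0, Kcne2 stood at 3.96% of its wild-type mean, Clic6 at 11.7%, Folr1 at 18.5% and Tmem72 at 27.0%, while Kcnj13 stood at 39.0%, Aqp1 at 46.2%, Slc4a5 at 51.6% and Enpp2 at 88.6%. In replicates 5 and 6, which had 8 and 91 Ttr counts, the exact Poisson interval of 8 of the 9 other genes lay above that of Ttr. In replicate 3, where Ttr had no count, such a comparison says little, since Kcne2 lay above on 1 count. In replicate 8 it held for 4 of 9, with Ttr at 31.6% and the others between 28.1% (Kcne2) and 88.2% (Enpp2). In replicate 1, where Ttr stood at 78.5%, it held for 2 of 9, Aqp1 (106%) and Enpp2 (111%), and 4 genes lay below Ttr: Tmem72 at 69.9%, Otx2 at 61.4%, Clic6 at 56.4% and Kcnj13 at 42.3%. These intervals cover counting error alone; single wild-type libraries ran from 42.2% (Otx2, replicate 2) to 151% (Kcne2, replicate 6) of the wild-type mean.

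**Figure D2:**
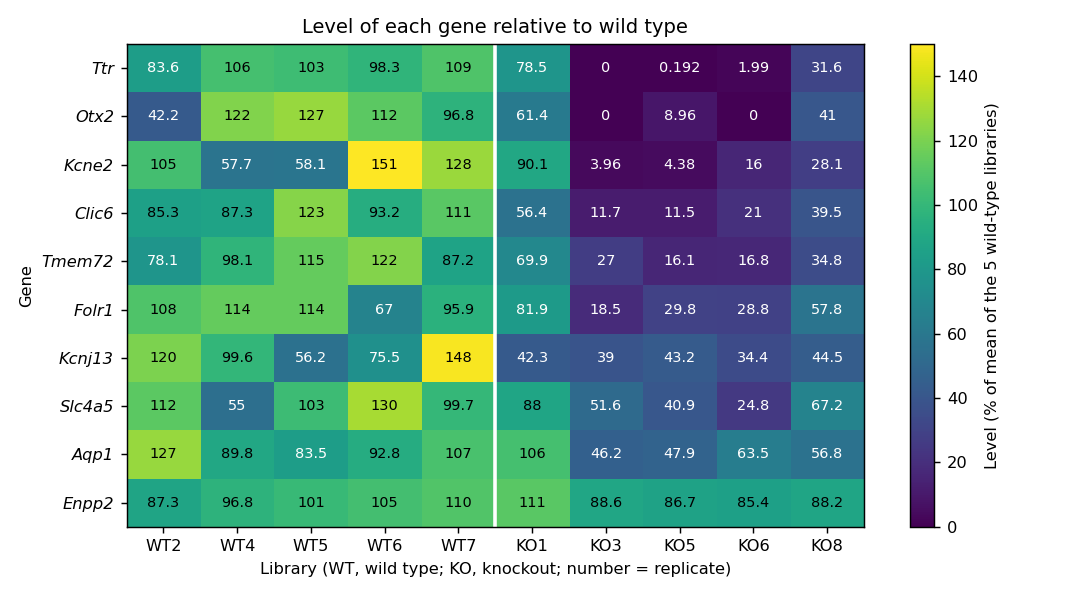
Level of each gene (rows) in each library (columns) as a percent of the mean of the 5 wild-type libraries, printed in each cell and coloured from 0 (dark) to 150% (light). In knockout replicates 3, 5 and 6 the top rows, Ttr and Otx2, stand between 0 and 8.96%, and the bottom row, Enpp2, between 85.4% and 88.6%.

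By role, the secreted products lay far apart in knockout replicates 3, 5 and 6, and the transport genes lay between them. Ttr stood at 1.99% or lower and Enpp2 at 85.4% to 88.6% of the wild-type mean. Otx2, at 0% in replicates 3 and 6, was no higher there than Ttr. The 5 transport genes summed to 11.9 to 16.4 CPM in the wild-type libraries, or 81.4% to 112% of their mean. Their sum was 32.4% of the wild-type mean in knockout replicate 3 (exact Poisson interval 25.9% to 40.1%), 31.8% in replicate 5 and 38.4% in replicate 6, where Ttr stood at 0%, 0.192% and 1.99% and Otx2 at 0%, 8.96% and 0%. Aqp1 gave 47 of the 86 transport counts in replicate 3, and in replicates 3, 5 and 6 the shares of Kcne2 and Clic6 were nearer to that of Ttr than to that of Aqp1. In replicate 8 the transport sum was 49.7% (41.5% to 59.0%), Ttr 31.6% and Otx2 41.0% (19.6% to 75.3%), and in replicate 1 they were 82.2% (71.2% to 94.4%), 78.5% and 61.4% (33.5% to 103%). The exact Poisson interval of Otx2 held the share of Ttr in every knockout library except replicate 5. With 14 Otx2 counts or fewer these intervals are wide, and in replicates 1 and 8 they also held the transport sum. They do not show that Otx2 followed Ttr. Whether the roles differed was not tested, since the genes were chosen by these levels.

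The ratio of each gene to Ttr within a library does not depend on library scaling. In wild type, Clic6 gave 13.7 to 19.7 counts per 1000 Ttr counts and Tmem72 16.7 to 25.8, whereas Kcne2 ranged from 2.99 to 8.42 and Otx2 from 2.71 to 6.58. In knockout replicate 1, 6 of the 9 ratios lay within the range of the wild-type libraries, Clic6 (0.718 of the wild-type mean ratio) and Kcnj13 (2.39 counts per 1000, against 2.41 to 6.40) lay below it, and Enpp2 (603 per 1000, against 389 to 455) lay above it. Both values below the range have counting intervals that reach into it. In replicate 8, 3 lay within the range, those of Kcne2, Kcnj13 and Tmem72, and 6 above it, from 1.25-fold of the wild-type mean ratio for Clic6 to 2.79-fold for Enpp2. Of these 6, the counting intervals of 4, Clic6, Otx2, Folr1 and Aqp1, reach down into the wild-type range.

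Replicate 6, with 91 Ttr counts, had 8 of 9 ratios above the wild-type range, from 7.91-fold of the wild-type mean ratio for Kcne2 to 42.8-fold for Enpp2. The remaining gene, Otx2, had 0 counts there, which allows up to 41.4 per 1000 Ttr counts (exact binomial interval) and so does not place it below wild type. In replicate 5, with 8 Ttr counts, Clic6 and Kcnj13 also gave 8 counts each and Aqp1 44, whereas over the 5 wild-type libraries Ttr gave 4065 to 5580 counts, Clic6 69 to 93, Kcnj13 11 to 33 and Aqp1 81 to 136. Replicate 3 had no Ttr count and gives no ratio. With the summed counts of the 10 genes as the reference in place of Ttr, several of these ratios fall on the other side of wild type: in replicate 6 Kcne2 was 0.586, Tmem72 0.621, Clic6 0.777 and Slc4a5 0.906 of the wild-type mean ratio, and in replicate 8 Clic6 was 0.818, Otx2 0.860, Tmem72 0.719 and Kcnj13 0.912. In replicate 6 Enpp2 alone gave 881 of each 1000 counts in that sum, against 264 to 293 in wild type.

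**Figure D3:**
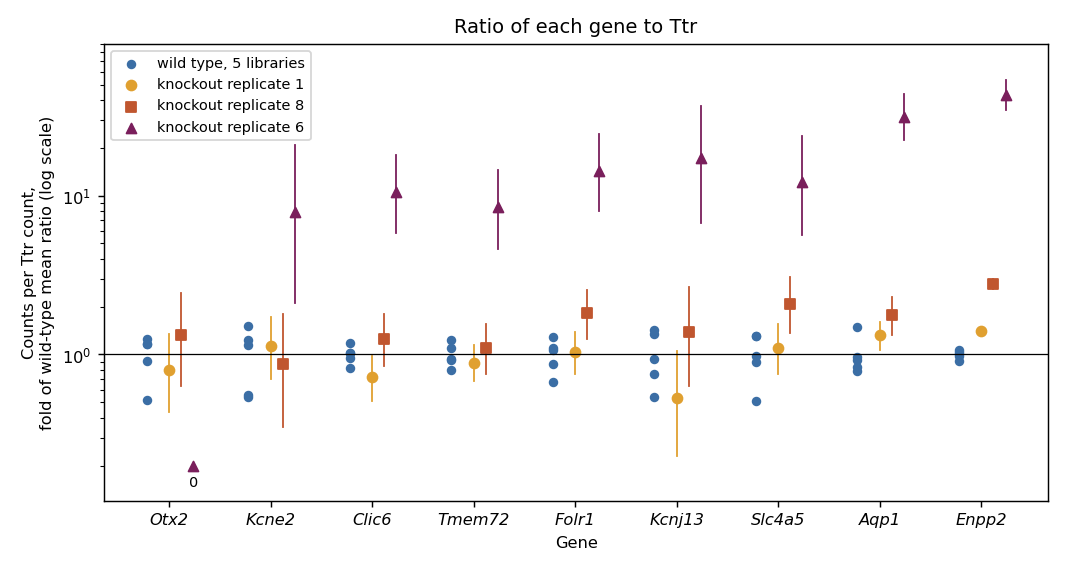
Counts of each gene per Ttr count, as a fold of the mean ratio of the 5 wild-type libraries (y axis, log scale), for the wild-type libraries (blue points) and knockout replicates 1, 8 and 6, which had at least 20 Ttr counts; vertical lines are exact 95% binomial intervals. The folds of replicate 6 run from 7.91 (Kcne2) to 42.8 (Enpp2) except Otx2, whose ratio of 0 is drawn at the bottom and marked 0.

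Other genes of the choroid plexus were taken from a wider list of 67 without the 10 above. The 10 were chosen by their levels here and this list was not restricted in that way, so their medians are not compared. The wider list too was chosen with earlier results of these data known. Of its 54 tested genes 1 was lower and 0 higher in the knockout by the edgeR test (0.381% of all tested genes were called), 8 were lower and 1 higher at an unadjusted p under 0.05 (4.52% and 4.19% of all tested genes, 8.71% in either direction), and the median log2 fold change was -0.089. Many of these genes are also expressed by cortical neurons, vessels or meninges, so their level in a cortex sample is not that of the choroid plexus alone. Transport genes of this list had a median of 0.029 over 21 genes, with Atp1b1 at 0.06 (SE 0.042) and Slc4a10 at 0.08 (SE 0.058). Atp1b1 encodes a subunit of the sodium pump, and Slc4a10 a bicarbonate transporter.

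Secreted products had a median of -0.21 over 11 genes, all of them negative, of which 1 passed the edgeR test. At an unadjusted edgeR p under 0.05, 4 were lower and 0 higher (4.52% and 4.19% of all tested genes). Ecrg4, which encodes a secreted peptide precursor of the choroid plexus, fell by 1.06 on the log2 scale (SE 0.24, edgeR adjusted p = 0.0428), from 3.54 ± 0.896 to 1.69 ± 0.266 CPM (SD, n = 5 each). Its knockout libraries gave 34, 25, 26, 34 and 28 counts and its wild-type libraries 97, 65, 53, 64 and 62, with all 5 knockout libraries between 39.0% and 57.6% of the wild-type mean. Igf2 (-0.06, SE 0.11), Igfbp2 (-0.13, SE 0.056) and Bmp6 (-0.19, SE 0.10), growth factor genes and a binding protein gene, did not pass. Of the 10 edgeR fits with 1 library removed, 3 called Ecrg4 (adjusted p from 0.0410 to 0.282): it was lost without wild-type replicate 2, 4, 5 or 7 and without knockout replicate 3, 5 or 6. Without knockout replicates 3, 5 and 6 together its adjusted p was 0.353, and Igf2 and Slc13a4 were called lower instead.

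Receptor, junction and epithelial genes had a median of -0.15 over 17 genes, with Htr2c, the serotonin receptor gene of the epithelium, at -0.46 (SE 0.25), Vat1l at -0.24 (SE 0.057, adjusted p = 0.0660) and the endocytic adaptor gene Dab2 at -0.02 (SE 0.088); 0 passed the edgeR test and 3 had an unadjusted p under 0.05. Cldn2, the pore-forming claudin of the epithelium, named after its values were seen, gave 35, 50, 35, 38 and 45 counts in wild type and 43, 1, 13, 16 and 9 in knockout (log2 fold change -1.14, SE 0.48, adjusted p = 0.482). Knockout replicate 1 was thus within the wild-type range of counts and replicate 3 the lowest. Transcription factor genes had a median of -0.11 over 5 genes: Msx1 stood at 0.02 (SE 0.17), Otx1 at 0.19 (SE 0.13) and Foxj1, the master regulator of motile cilia, at -0.64 (SE 0.19, adjusted p = 0.184), with 0 past the edgeR test and 1 at an unadjusted p under 0.05.

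**Figure D4:**
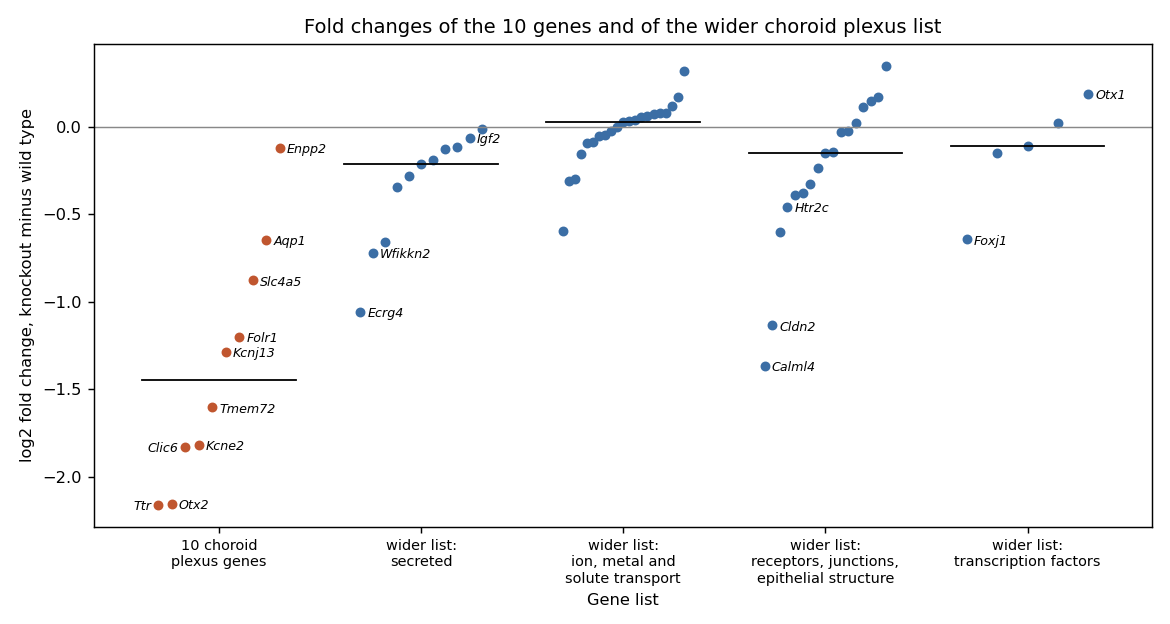
Log2 fold change, knockout minus wild type (y axis), of the 10 choroid plexus genes (orange) and of the 54 tested genes of the wider list by role (blue); each point is a gene, ordered by value within its column, and black lines are medians. The 10 genes have a median of -1.45 and the roles of the wider list medians between -0.21 and 0.029. The lists were chosen in different ways, so these medians are not compared.

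Markers of neighbouring cells were measured beside these genes. Of 15 tested ependymal genes 1 fell, Cfap44, a motile cilium gene (log2 fold change -0.81, SE 0.18, edgeR adjusted p = 0.0410; 0.194% of all tested genes were called lower). At an unadjusted p under 0.05, 5 of the 15 were lower and 0 higher, and 12 were negative, with a list median of -0.51. Dnah5, an axonemal dynein gene, stood at 0.13 (SE 0.11). The median ependymal gene stood at 26.8% of its wild-type mean in knockout replicate 3 and at 63.0% to 91.1% in the other knockout libraries. Of the 10 fits with 1 library removed, 3 called Cfap44 (adjusted p from 0.0203 to 0.164; lost without any 1 of the 5 wild-type libraries and without knockout replicate 3 or 5), and its adjusted p was 0.337 without knockout replicates 3, 5 and 6. Of 17 striatal genes 2 fell, Six3 (-2.70, SE 0.36, adjusted p = 0.000625) and Penk (-1.03, SE 0.16, adjusted p = 0.00989), a homeobox gene and the enkephalin precursor gene. At an unadjusted p under 0.05, 13 of the 17 striatal genes were lower and 1 higher, against 4.52% and 4.19% of all tested genes. Of the 17, 16 were negative, with a list median of -0.56. The striatal and ependymal lists were chosen with earlier results of these data known, so nothing is read from these shares. Adcy5 (-0.13, SE 0.045) and Foxp1 (-0.10, SE 0.11) did not pass. Penk lost the call without knockout replicate 3 (adjusted p = 0.0608), and without knockout replicates 3, 5 and 6 neither passed (0.0620 and 0.143).

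In the other lists 0 genes passed the edgeR test (0.381% of all tested genes did), with the number at an unadjusted p under 0.05 between 0 and 4. Over all tested genes that share was 8.71%. Of 11 cortical neuron genes 2 were higher and 2 lower, of 9 hippocampal genes 2 were higher and of 7 red cell genes 2 were lower. Of 8 thalamic genes 1 was lower, of 11 endothelial genes 1 was higher, and the remaining lists had 0. The 14 stroma and meningeal genes had a median of -0.0057, with Ptgds at -0.03 (SE 0.23) and the collagen gene Col1a2 at -0.04 (SE 0.16). Their summed level was 966 to 1094 CPM in knockout replicates 3, 5 and 6, above the 783 to 933 CPM of wild type, and 616 and 606 CPM in replicates 1 and 8. Without knockout replicates 3, 5 and 6, the list median was -0.33 and 1 of its genes, Ptgds, was called lower. Of the hippocampal genes, Zbtb20 stood at 43.0% of its wild-type mean in knockout replicate 3 and at 72.0% to 121% in the other knockout libraries. Prox1, named after its values were seen, stood at 44.2% and at 105% to 123%. The median hippocampal gene stood at 84.2% in replicate 3 and at 100% to 112% in the other knockout libraries, and the list median log2 fold change was 0.040. Lhx2, which is also expressed by cortical progenitors and astrocytes, had a log2 fold change of 0.13 (SE 0.055). The medians of the remaining lists were -0.33 for red cells (Hba-a1 -0.33), -0.17 for thalamus (Slc17a6 -0.02, Calb2 -0.17), 0.02 for endothelium (Cldn5 0.07, Slco1c1 0.14), 0.056 for the oligodendrocyte lineage (Olig1 0.06, Pdgfra -0.06) and 0.093 for cortical neurons (Slc17a7 0.09). The part of these tissues in the levels of the choroid plexus genes was not tested.

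**Figure D5:**
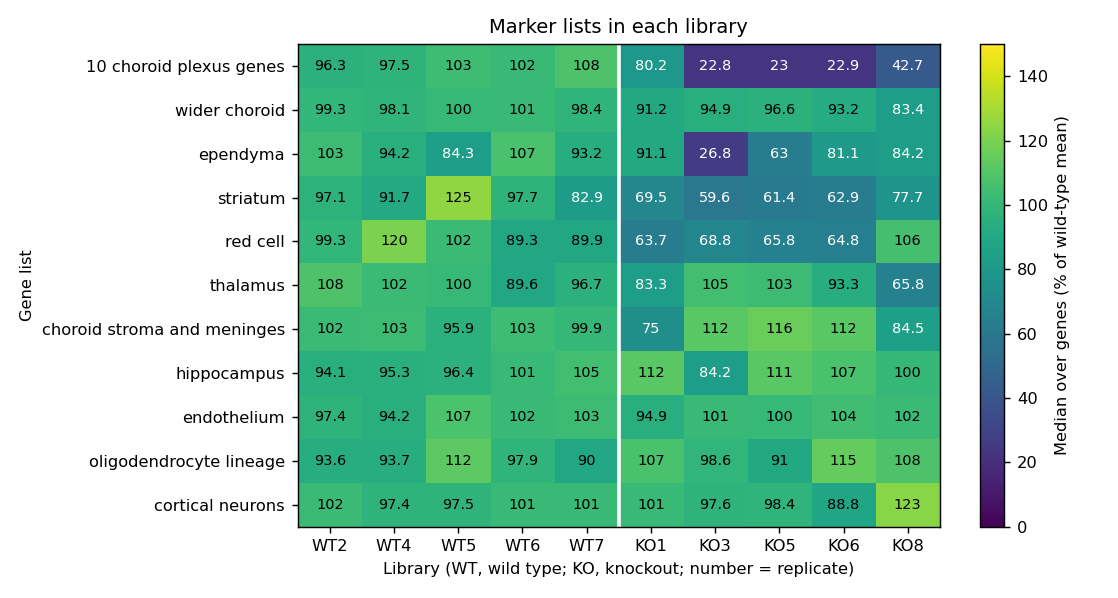
Median over the genes of each marker list (rows) of the level as a percent of the wild-type mean, in each library (columns), printed in each cell and coloured from 0 (dark) to 150% (light). The 10 choroid plexus genes stand at 22.8% to 23.0% in knockout replicates 3, 5 and 6, at 42.7% in replicate 8 and at 80.2% in replicate 1, and the ependymal list is lowest in replicate 3, at 26.8%.

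Genes whose levels followed those of Ttr most closely over the knockout libraries were looked for among 14588 genes with at least 1 CPM in wild type. Likeness was the mean absolute gap, over the 5 knockout libraries, between a gene's percent of its own wild-type mean and that of Ttr. With Ttr itself counted as the first, Otx2 (7.45 percentage points) and Kcne2 (7.45) ranked 2 and 3, Tmem72 (13.9) 5, Clic6 (14.4) 6 and Folr1 (20.9) 10. Slc4a5 ranked 29, Kcnj13 35, Aqp1 94 and Enpp2 2350, at 69.6 percentage points. These ranks use the levels that the genes were chosen for.

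The 8 nearest named genes outside the 10 were Isl1, Six3, Six3os1, Samd3, Tnfrsf8, Dnali1, Ccdc187 and Oprk1, at gaps of 12.3 to 24.8 percentage points. Isl1 and Six3 are transcription factor genes of striatal neurons, Six3os1 is the transcript on the opposite strand of Six3, Dnali1 encodes an axonemal dynein chain and Oprk1 the kappa opioid receptor. Isl1 gave 24, 20, 24, 33 and 7 counts in wild type and 9, 0, 2, 0 and 10 in knockout. Six3 gave 106, 77, 109, 118 and 40 counts in wild type and 14, 8, 8, 5 and 27 in knockout, so that its knockout replicate 1, unlike that of Ttr, was also far below the lowest wild-type library. Samd3 was the nearest of the 8 to wild type in replicate 1, at 104%, with 21 counts.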

How the data were processed

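The authors deposited 1 table of raw counts per gene with Entrez identifiers; HISAT2, featureCounts and mm39 are named in the submitters' processing notes. The notes used here give no versions, annotation, strand setting or handling of multiple alignments. Totals were 16479594 to 22391943 counts per library.

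Symbols came from a RefSeq table of GRCm38.p6 (30648 of 30935 identifiers matched), transcript lengths and overlaps from GENCODE M21. Counts were filtered with filterByExpr, scaled by TMM and tested with edgeR 4.0.16 (quasi-likelihood F test, robust dispersions) in R 4.3.3, genotype as the sole term, two-sided, Benjamini-Hochberg adjusted over all 15488 tested genes at 0.05. SEs were derived from the F statistic. Intervals are exact 95% Poisson or Clopper-Pearson intervals and cover counting error only. P-values set the difference between the genotypes against the spread between the samples within them, with dispersions moderated across genes.

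The 10 genes and all lists were chosen with earlier results of these data known. Named genes are the 10, list genes past the threshold, the 3 of highest mean CPM in each role of the wider list and the 2 in each other list, overlapping genes, and the 8 nearest to Ttr; some genes that this rule names are not reported here. 189 of 191 list entries matched the table. Overlap partners other than Gigyf2 were Anapc15 (7.56 CPM in wild type and 7.69 in knockout, on the opposite strand of Folr1), Gm26684 (0.160 and 0.147 CPM), 2410124H12Rik (0.039 and 0.046 CPM) and Otx2os1, at 0 counts in every library; Gm49154 was not analysed here. Alternatives were other scalings, filters, DESeq2 1.42.0, limma-voom (limma 3.58.1), each library left out, knockout replicates 3, 5 and 6 left out, and a replicate block. The test was checked on simulated counts, with the same dispersion for all genes and the same fold change in every knockout library. The check does not cover genes that differ widely among the knockout libraries, such as Ttr.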

Additional observations from a re-analysis of the deposited data

Results flagged for a closer look

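For 2 genes, knockout replicate 1 was set off from the remaining knockout libraries by a gap wide for the spread of its genotype. For Enpp2 it was the highest knockout library, at 121 CPM against 92.5 to 96.0 CPM in the 4 others. For Kcne2 it was the highest as well, at 1.26 CPM against 0.0552 to 0.392 CPM. Such a gap was looked for in 20 sets of 5 libraries, 1 for each gene and genotype. It was found in 2 of them, where roughly 1 of 20 would arise by chance. The genes were chosen by these levels, so nothing is read from the flags. Knockout replicate 1 also held the most Ttr of the knockout libraries, at 200 CPM.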

How the results depend on the processing

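The genes called between the genotypes numbered 59, and 171 with no filter, 124 with DESeq2, 12 without knockout replicates 3, 5 and 6, and 15 to 182 in fits that left out 1 library (leaving out wild-type replicate 2, 4 or 5 gave 15, 21 and 17, and knockout replicate 3, 6 or 8 gave 17, 37 and 182). The wider choroid list had 1 call, and 2 with upper quartile scaling, 3 with no filter, 2 with DESeq2, 0 with limma-voom (9 at an unadjusted p under 0.05), 2 without knockout replicates 3, 5 and 6, and 0 to 2 leaving out 1 library. The neighbouring lists had 3 calls, and 8 with no filter, 1 with at least 50 counts in 5 libraries, 7 with DESeq2, 1 without knockout replicates 3, 5 and 6, and 1 to 14 leaving out 1 library. With a replicate block for the shared numbers 5 and 6 the counts were 30, 0 (8 at an unadjusted p under 0.05) and 2; samples with the same number did not deviate together (correlations -0.030 and -0.057), so the numbers are not read as pairs. The log2 fold changes of the 10 genes stayed negative in every fit run, from -5.99 to -0.86 for Ttr and from -0.20 to -0.0025 for Enpp2. All 400 alternative shares of the wild-type mean stayed within 1 SD of the wild-type libraries. This check is weak: that SD was up to 41.8% of the mean (Kcne2), while TMM factors ran only from 0.992 to 1.01. Of 54 alternative ratios, 17 moved by more than 1 SD, all with the sum of the 10 genes in place of Ttr. The other alternative, a minimum of 5 Ttr counts, cannot change a ratio, so its entries among the 54 were fixed in advance. Depth limits Otx2, Kcne2 and Kcnj13, with 47 counts or fewer in any library.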
